A study of Mus musculus with 19 samples.

Results

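In 57 mouse genes, the share of the gene's reads taken by 1 of its transcripts differed by at least 50 percentage points between wild-type (WT) proliferating myoblasts and WT fused myotubes. The genes were chosen by a rule on transcript shares, a share being the percentage of a gene's estimated counts assigned to 1 of its transcripts. A gene entered when its mean total was at least 500 counts in WT cells at 24 h and at 72 h, and when the mean share of 1 protein-coding transcript differed between these groups by that much. Of 35675 genes with a matched transcript, 5172 passed the count minimum, and 3917 of these had at least 2 protein-coding transcripts. The tropomyosin genes Tpm1 and Tpm3 also passed and were left out by name. In each gene, the transcript with the largest change is called the switching transcript. It took more of the reads at 72 h in 26 genes and more at 24 h in 31. The 2 transcripts of a gene that gained and lost most share in WT are called the rising and the falling transcript, which are names given by the rule and not test results.

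A gene can give several messenger RNAs by starting at different promoters, by including or skipping exons, and by ending at different last exons. Striated muscle uses many such alternatives, and a number of contractile, adhesion and metabolic proteins have a muscle form that differs from the form made in dividing precursors. RNA-binding proteins of the RBFOX, MBNL, CELF and PTB families are known to control exon inclusion during myogenesis.

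The data were 19 messenger RNA libraries from primary mouse myoblasts, muscle precursor cells that leave the cell cycle and fuse into multinucleate myotubes. Libraries labelled WT came from proliferating myoblasts at 24 h (3 libraries), differentiated cells at 48 h (3 libraries) and fused myotubes at 72 h (4 libraries). Libraries labelled Glud1KO, written KO-labelled here, came from the same 3 stages with 3, 2 and 4 libraries. Glud1 encodes the mitochondrial enzyme glutamate dehydrogenase, and the study asked about its part in the fate of muscle stem cells. Strain, age, sex and the way Glud1 was removed are not given in the sources used here, nor is it said whether replicates are separate animals, so p-values measure the spread between these libraries only.

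The choice of the 57 genes used WT libraries at 24 h and 72 h alone. Their shares there are a description without a test, and tests were made on the KO-labelled libraries and at 48 h. Libraries held 16168131 to 30742634 estimated counts, and the 57 genes had a median of 2395 counts in WT at 24 h and 2899 at 72 h. Glud1 RNA did not separate the labels. It stood at 184 to 192 CPM (counts scaled to library size) in WT and 185 to 190 in KO-labelled cells at 24 h, and at 131 to 141 and 130 to 139 at 72 h. The deposited files of either group have KO in their names, and those of the KO-labelled group have a further T, so "KO-labelled" refers to the label alone. Summed muscle markers were at 2685 to 2954 CPM per library in WT and 2196 to 2297 CPM in KO-labelled cells at 24 h. At 72 h they were at 30691 to 33029 CPM over both labels. The summed fibroblast markers, mostly Col3a1, lay at 302 to 330 CPM at 24 h and 5.48 to 25.4 CPM later, with Dcn and Lum under 1 CPM in all libraries. The pericyte marker Rgs5 lay at 35.6 to 46.7 CPM at 24 h and under 1 CPM in all later libraries. In such bulk libraries, fewer cells of a type and less RNA per cell cannot be told apart, and the part of other cell types in the share changes was not tested.

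In most of the 57 genes the rising and the falling transcript differed by whole internal exons, many of them short and coding. Within the genomic span that both transcripts cover, a whole internal exon was present in only 1 of the 2 in 43 of the 57 genes, or 75.4%, against 37.2% of 2739 other genes past the count minimum with a rising and a falling protein-coding transcript. The first exon differed in 24 of the 57 genes (42.1%, other genes 41.7%) and the last in 12 (21.1%, other genes 21.5%). The 43 genes held 77 such internal exons, of which 62 were in the rising and 15 in the falling transcript. Outside the shared span, where an earlier start or a later end adds exons to 1 transcript, a further 15 were in the rising and 65 in the falling transcript of 23 genes, which made 77 and 80 in all. The counts that follow are of exons within the shared span. Of the 69 that were coding throughout, 61 had a length divisible by 3 (88.4%, other genes 69.8% of 1216 exons) 29 were at most 51 nucleotides long (42.0%, other genes 19.4%), and 54 were in the rising transcript (78.3%, other genes 61.3%). Their median length was 66 nucleotides, against 99 in the other genes. These shares describe transcript models that the rule selected and carry no test. Of the other pairs, 23.4% differed in none of these exon features, and of the 57 pairs 0 did.

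The following exons of the rising transcripts are shown because so short a run is the only whole internal exon by which the rising transcript differs from the falling one, although Psap and Tmem184b also differ in the first exon. The sequences come from the GENCODE M21 transcripts of mouse build GRCm38, 5′ to 3′ along the transcript, with the exon in capitals and 15 bases of each neighbouring exon in lower case. The lysosomal protein gene Psap has a 9-nucleotide exon at chr10:60297537-60297545 on the plus strand, and Mars, the cytosolic methionyl-tRNA synthetase, a 24-nucleotide exon at chr10:127296717-127296740 on the minus strand. Tmem184b has a 21-nucleotide exon at chr15:79363658-79363678 on the minus strand, and the annexin gene Anxa7 a 66-nucleotide exon at chr14:20467458-20467523 on the minus strand.
Psap: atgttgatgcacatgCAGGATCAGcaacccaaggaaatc
Mars: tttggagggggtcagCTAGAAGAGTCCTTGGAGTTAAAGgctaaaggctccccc
Tmem184b: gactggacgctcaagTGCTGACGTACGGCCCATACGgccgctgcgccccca
Anxa7: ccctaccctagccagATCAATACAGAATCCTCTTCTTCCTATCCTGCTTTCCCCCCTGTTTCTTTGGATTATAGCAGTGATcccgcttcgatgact
All 4 lengths are divisible by 3. Of 29 genes with a single internal exon of this kind within the shared span, 27 had it in the rising transcript, a lean that the other genes share in part, as given above. The 2 exceptions, Flnc and Phka1, skip an exon in the muscle-stage form.

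Mitochondrial phosphate carrier transcripts of Slc25a3 exchanged 1 exon for another. The rising transcript carries a 125-nucleotide exon at chr10:91122207-91122331 and the falling one a 122-nucleotide exon at chr10:91121922-91122043, both on the minus strand and both flanked by the same coding bases. The exon lost from filamin C (Flnc) lies at chr6:29452799-29452897 on the plus strand and is 99 nucleotides long. Exon capitals and lower-case flanks are as above.
Slc25a3 rising: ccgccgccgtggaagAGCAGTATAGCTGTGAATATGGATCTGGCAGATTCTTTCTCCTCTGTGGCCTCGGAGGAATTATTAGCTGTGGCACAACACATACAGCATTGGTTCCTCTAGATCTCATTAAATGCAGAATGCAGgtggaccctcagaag
Slc25a3 falling: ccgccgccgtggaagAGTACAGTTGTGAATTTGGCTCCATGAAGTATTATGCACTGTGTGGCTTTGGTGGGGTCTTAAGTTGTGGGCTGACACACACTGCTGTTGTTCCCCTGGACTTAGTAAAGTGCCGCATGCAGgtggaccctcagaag
Flnc falling: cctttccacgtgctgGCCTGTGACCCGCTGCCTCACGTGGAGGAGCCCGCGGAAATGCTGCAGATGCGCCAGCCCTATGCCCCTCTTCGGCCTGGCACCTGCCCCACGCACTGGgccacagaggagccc
The Phka1 exon absent from the rising transcript is 177 nucleotides long, at chrX:102557096-102557272 on the minus strand. Both the Flnc and the Phka1 exon lengths are divisible by 3, so the reading frame is kept on either path.

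Coding length changed in both directions. The rising transcript coded for a longer protein in 28 genes, a shorter one in 26 and a protein of equal coding length in 3, and the lengths differed by less than 100 nucleotides in 24 genes. The longest gain was in Naca, with a coding sequence of 6561 nucleotides in Naca-202 and 645 in Naca-201, set by 1 internal exon of 5916 nucleotides. Shorter rising forms included those of Smtn (1308 against 2763), Pdlim5 (642 against 1773), Masp1 (1155 against 2199) and Pdlim7 (564 against 1371). Coding sequences were the same in Mfn2, Fam49b and Usf3, whose pairs differ only in exons outside it. Lengths are as annotated, and a few transcript models have an incomplete coding sequence.

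Where the first exon differed, the start sites lay apart by up to 142580 nucleotides in Palld, 86571 in Ksr1 and 4067 in Ak1. A RefSeq promoter window (250 bases before to 50 after a start, build GRCm38.p6) lay within 100 nucleotides of the start of both transcripts in 10 of these 24 genes. Each window was searched for CAGCTG, an E-box bound by myogenic bHLH factors that reads the same on either strand. CAGCTG occurred in 4 of the 10 rising windows (Ak1, 2310022A10Rik, Wbp1l, Palld) and in 0 of the 10 falling ones, against 16.3% of 32851 RefSeq promoters. Over all matched windows, it occurred in 4 of 11 rising and in 1 of 17 falling ones, the latter of 2900026A02Rik. A second pattern, CTA and TAG with any 4 bases between, occurred in 1 of the 10 rising windows (Ppp2r3a) and in 0 of the 10 falling ones, against 3.69% of promoters. The windows of Ak1 are shown because they pair a rising start that holds the motif with a falling start that does not. Only the 250 bases before the start are printed, in lower case with the motif in capitals, at chr2:32625187-32625436 (rising) and chr2:32629250-32629499 (falling) on the plus strand.
Ak1 rising: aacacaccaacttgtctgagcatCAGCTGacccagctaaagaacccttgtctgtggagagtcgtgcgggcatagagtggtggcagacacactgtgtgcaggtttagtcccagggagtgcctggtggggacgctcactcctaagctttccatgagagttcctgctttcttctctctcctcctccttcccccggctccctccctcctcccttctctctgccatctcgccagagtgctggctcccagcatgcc
Ak1 falling: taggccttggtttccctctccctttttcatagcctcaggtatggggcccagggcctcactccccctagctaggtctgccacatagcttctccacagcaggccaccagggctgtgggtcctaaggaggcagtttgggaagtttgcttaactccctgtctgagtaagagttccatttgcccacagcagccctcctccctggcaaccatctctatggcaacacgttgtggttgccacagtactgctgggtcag
A match describes letters in the window and is not evidence of binding, which was not measured here.

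The share changes were also found in libraries that the rule had not used. In KO-labelled cells at 72 h against 24 h, the switching transcript changed relative to the rest of its gene in the WT direction in 53 of 57 genes (edgeR quasi-likelihood usage test, Benjamini-Hochberg adjusted p under 0.05). Over all 44935 transcripts tested, 15.6% were called along their own WT change. That background includes transcripts of low counts and small changes, so it is not matched to the 57. The share moved along the WT direction by a median of 62.6 points, from 26.6 in Usf3 to 88.9 in Mfn2, and by at least 50 points in 56 genes. A list of 84 genes with known muscle isoform switches held 8 of the 57 (Capzb, Lrrfip1, Ncam1, Pdlim5, Pdlim7, Slc25a3, Smtn and Snap23), and all 8 were called, with changes of 59 to 82.1 points. The libraries of the 2 stages did not overlap in any of the 57 genes, all along the WT change. Of all transcripts, 25.6% did so along their own WT change, and a further 1349 of the 44935 did not overlap against it. Spread between replicates was small beside these changes, with a median SD of 1.67 to 2.49 points over the 6 groups. The widest spreads were in Usf3 (SD 23.4 points in KO-labelled cells at 48 h, n = 2) and Herc4 (21.4 points at 72 h, n = 4).

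**Figure D1:**
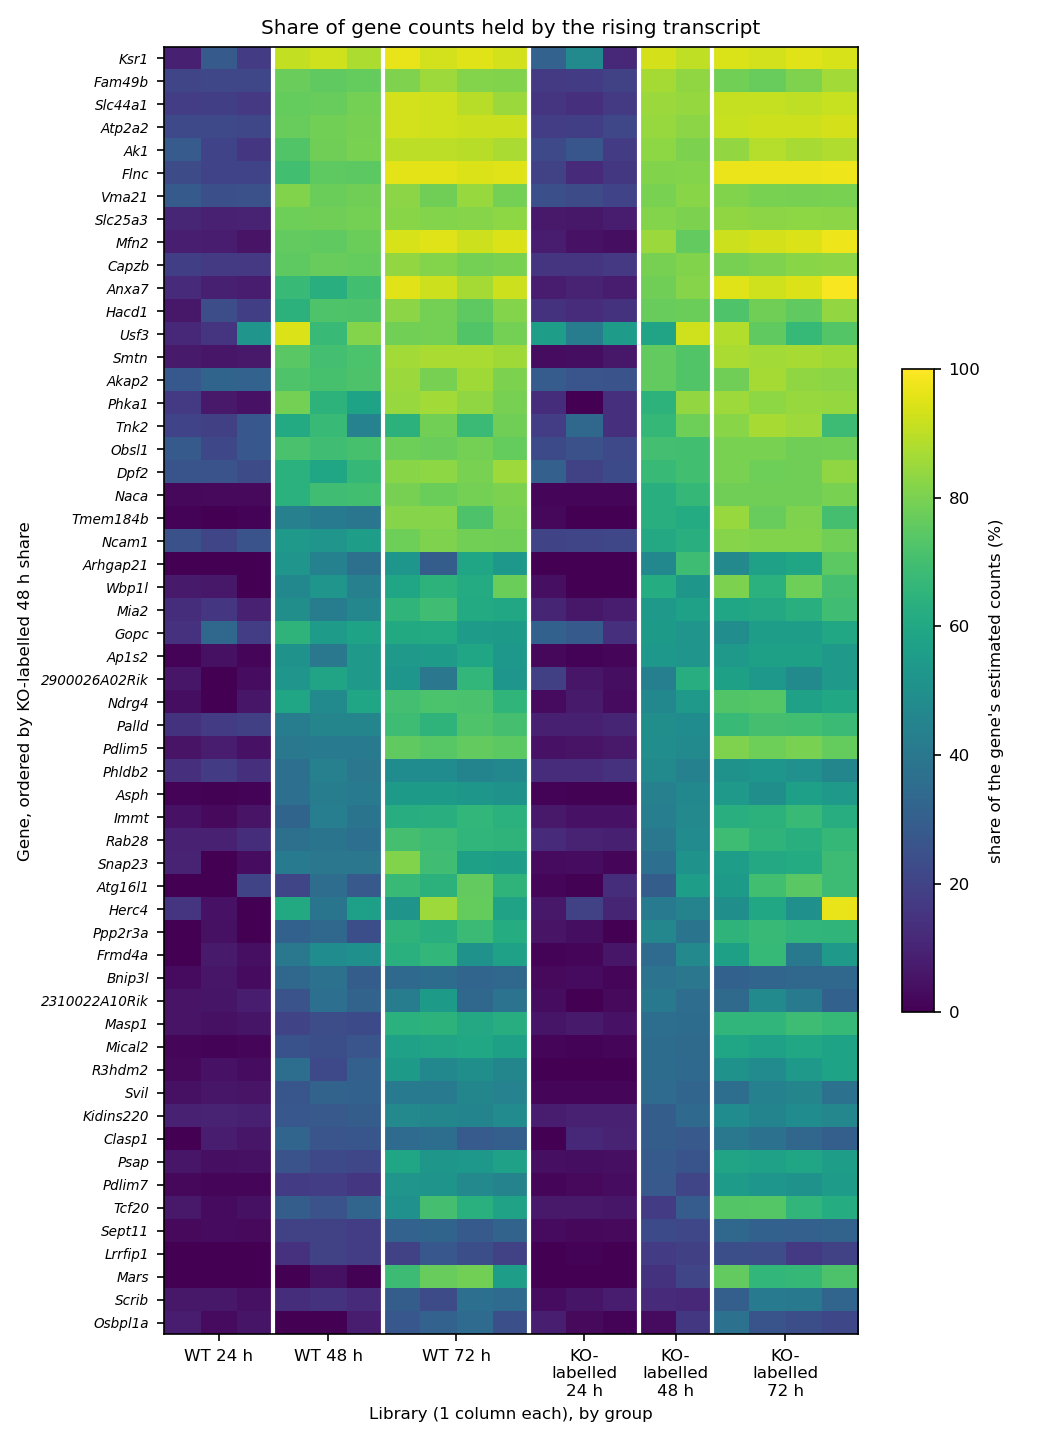
Share of the rising transcript in percent (colour) for 56 of the 57 genes (rows, ordered by the KO-labelled 48 h share) in 19 libraries (columns, grouped by label and stage). Under both labels, shares are lower in the 24 h than in the 72 h columns, as in Mfn2 with 3.78% to 8.32% at 24 h and 92.3% to 97.4% at 72 h, and most 48 h shares lie between.

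Mfn2, which is on none of the lists of roles, had the largest share change in WT among the 57 genes. It encodes mitofusin 2, a GTPase that fuses outer mitochondrial membranes, on chromosome 4 at 147873599 to 147904704. Mfn2-201 held 8.12%, 4.78% and 3.78% of Mfn2 counts in the KO-labelled libraries at 24 h and 92.3%, 93.7%, 94.7% and 97.4% at 72 h. The WT values were 8.32%, 7.86% and 5.23%, then 94%, 95%, 92.6% and 94.8%. No library of either stage overlapped the other, and usage in KO-labelled cells rose by 4.07 on the log2 scale (edgeR adjusted p = 3.04e-63). Mfn2-201 differs from the falling Mfn2-204 by an 83-nucleotide internal exon that is not coding, so the switch leaves the protein sequence as annotated unchanged.

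A list of 60 glycolysis and energy metabolism genes held 3 of the 57 genes, Slc25a3, Ak1 and Phka1. In KO-labelled cells at 72 h against 24 h, the first 2 were called and Phka1 was not, with share changes of 64.8 to 80.1 points over the 3. Slc25a3-206, the form with the 125-nucleotide exon, held 6.9%, 6.5% and 8.16% at 24 h and 83.3%, 82.7%, 83.1% and 82.6% at 72 h in KO-labelled cells. The 2 libraries at 48 h, at 81.5% and 80.4%, were already close to the 72 h level. Usage rose by 3.53 on the log2 scale (edgeR adjusted p = 7.14e-208). In WT, the same transcript lay at 9.29% to 10.6% at 24 h, 78.1% to 79.2% at 48 h and 81.4% to 82.8% at 72 h. Slc25a3 was among the tightest switches, with an SD under 1 point in each of the 6 groups.

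Ak1 encodes cytosolic adenylate kinase, which balances adenine nucleotides, and its 2 transcripts start at the promoters shown above. Ak1-202 held 21.9%, 26.6% and 17.7% at 24 h and 83.8%, 88.9%, 86.8% and 88% at 72 h in KO-labelled cells, a usage rise of 1.98 on the log2 scale (edgeR adjusted p = 1.47e-33).

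A list of 117 sarcomere, Z-disc and actin cytoskeleton genes held 8 of the 57 genes. How many of the 117 passed the count minimum is not given here. All 8 were called in KO-labelled cells, with share changes of 56.1 to 82.1 points, beside 53 of the 57 as a whole. Flnc encodes filamin C, which crosslinks actin at the Z-disc and the membrane. Flnc-201, with the 99-nucleotide exon, held 80.1%, 87.4% and 83.5% at 24 h, 19% and 18.6% at 48 h, and 2.74%, 2.64%, 2.66% and 2.58% at 72 h in KO-labelled cells. WT libraries ran from 76.9% to 79.7% at 24 h, 24.7% to 29.9% at 48 h and 3.83% to 5.03% at 72 h. Usage fell by 4.98 on the log2 scale (edgeR adjusted p = 1.17e-174), and the 3 KO-labelled stages did not overlap.

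Smtn encodes smoothelin, an actin-binding protein known from smooth muscle. Smtn-201, which starts 11355 nucleotides downstream of Smtn-202, held 3.15%, 3.78% and 6.39% at 24 h and 87.2%, 86.3%, 86.9% and 85.9% at 72 h in KO-labelled cells (log2 usage 4.28, edgeR adjusted p = 2.32e-170). The PDZ and LIM domain genes Pdlim5 and Pdlim7, whose proteins bind Z-disc components, both gave up the long form. Pdlim5-201 held 76%, 76% and 75.6% at 24 h and 0.73%, 0.869%, 0.976% and 0.735% at 72 h (log2 usage -6.50, edgeR adjusted p = 2.24e-214), while Pdlim5-203 reached 76.5% to 80.5%. Pdlim7-201 held 65.5% to 69% at 24 h and was estimated at 0 in 3 of 4 libraries at 72 h (the other 0.273%; edgeR adjusted p = 4.13e-36). The rising Pdlim7-202 held 53.5% ± 1.7 (SD, n = 4) at 72 h, the rest being spread over other transcripts.

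Capzb encodes the beta subunit of the protein that caps actin barbed ends, and a muscle form set by an exon near the 3′ end is known. Capzb-203, which carries a 113-nucleotide internal exon, held 15.3%, 15.3% and 16.7% at 24 h and 79.6%, 80.8%, 82.2% and 82.7% at 72 h in KO-labelled cells (log2 usage 2.37, edgeR adjusted p = 3.66e-168). Its 48 h values, 79.5% and 80.9%, overlapped those at 72 h. Capzb-203 and the falling Capzb-202 also differ in the first exon, with start sites 40459 nucleotides apart. Mical2, which is on none of the lists, encodes an actin-oxidising monooxygenase, and its exchange was still under way at 48 h. Mical2-203 held 96.2%, 96.7% and 96.3% at 24 h, 52.7% and 54.5% at 48 h, and 21.2%, 22.4%, 21.1% and 22.1% at 72 h (log2 usage -2.15, edgeR adjusted p = 2.88e-98). The other members on the cytoskeleton list were Palld (palladin), Obsl1 (obscurin-like 1) and Svil (supervillin), whose KO-labelled shares did not overlap between 24 h and 72 h either. Lrrfip1-203 held 65.6% to 68.1% at 24 h and 1.14% to 1.56% at 72 h, with 13 internal exons of the shared span present only in Lrrfip1-205. Lrrfip1-205 itself reached only 20.9% ± 3.4 (SD, n = 4), so that in this gene the loss of 1 form was spread over several others.

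**Figure D2:**
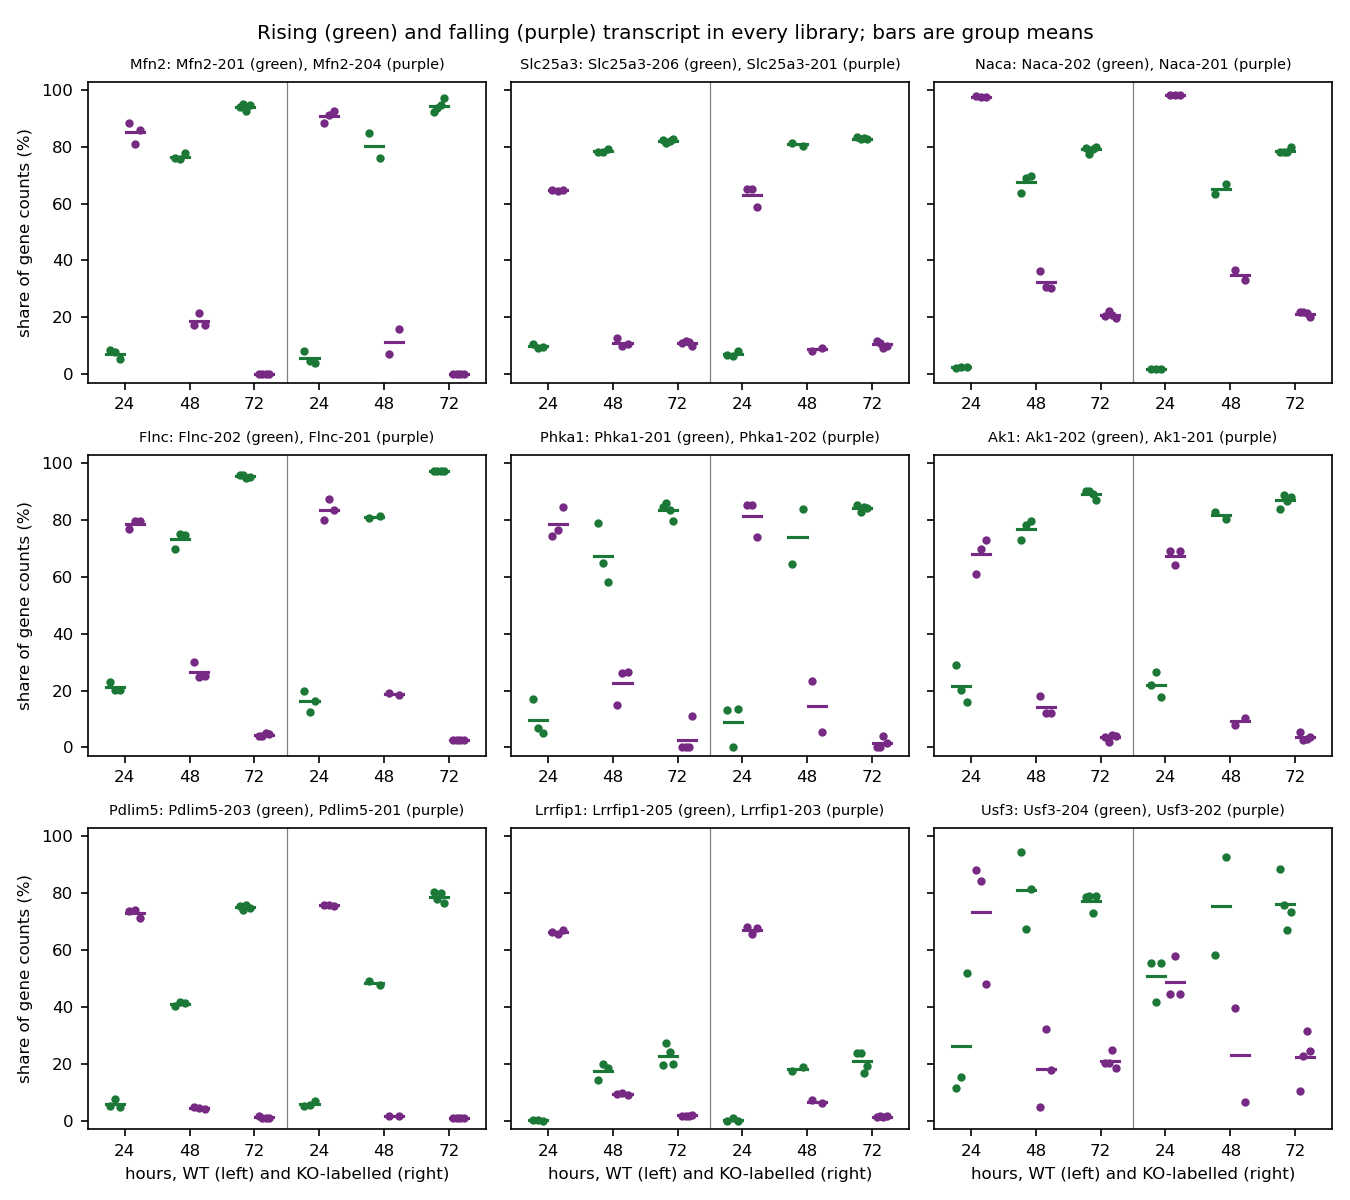
Shares in percent of the rising (green) and falling (purple) transcript of 9 genes in each library (points) by stage and label, with group means as bars. Mfn2, Slc25a3, Naca and Flnc change over without overlap between 24 h and 72 h, while single libraries spread widely in Phka1 and Usf3.

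The genes Anxa7, Slc44a1 and Tmem184b are on none of the lists and had some of the 12 largest share changes in WT. Anxa7-202 contains the 66-nucleotide exon and encodes the longer form of a calcium-dependent phospholipid-binding protein. It held 7.58%, 9.61% and 7.68% at 24 h and 95.2%, 92.9%, 94.7% and 98.9% at 72 h in KO-labelled cells (log2 usage 3.53, edgeR adjusted p = 9.68e-94). Atp2a2, also on none of the lists and chosen after its values were seen, encodes the SERCA2 calcium pump, whose muscle and general forms differ at the 3′ end. Atp2a2-202, with the shorter coding sequence (2994 against 3132 nucleotides), held 18.1%, 18.7% and 21.2% at 24 h and 91.7%, 92.5%, 92.6% and 93.4% at 72 h (log2 usage 2.26, edgeR adjusted p = 1.88e-167). The cell adhesion gene Ncam1 also switched at the 3′ end, to the transcript Ncam1-201, from 20.3%, 21% and 21.2% to 81.8%, 80.9%, 80.9% and 78.5% (log2 usage 1.95, edgeR adjusted p = 8.89e-63). All of these stages were separate from each other in every library. Per length, in TPM (transcripts scaled for length and depth), Ncam1-201 already had the highest value of its gene in WT at 24 h. In KO-labelled cells at 24 h it stood at 18.2 TPM, against 18.6 TPM for the falling Ncam1-204. At 72 h they stood at 480 and 8.17 TPM.

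The choline transporter-like gene Slc44a1 exchanged its last exon, and Slc44a1-205 went from 82.7% to 86% at 24 h to 6.51% to 8.9% at 72 h (edgeR adjusted p = 1.43e-71). Tmem184b-202, without the 21-nucleotide exon, held 90.7%, 91.1% and 91.4% at 24 h and ranged from 0.00873% to 16.7% at 72 h (log2 usage -3.66, edgeR adjusted p = 0.000215). Snap23, a SNARE protein of plasma membrane fusion, was the only member on a list of 43 genes of membrane traffic and endocytosis, and it was called. Snap23-203 held 2.79%, 3.38% and 1.55% at 24 h and 56.2%, 60.2%, 61.5% and 68.5% at 72 h (log2 usage 4.59, edgeR adjusted p = 1.4e-09). Its WT libraries at 72 h were spread from 56.2% to 80.9%, a wider range than in the KO-labelled group.

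Naca, Mars and Ksr1 are on none of the lists and are given because their WT share changes, which the rule used, were among the 12 largest. Naca encodes the alpha subunit of the nascent polypeptide-associated complex, and its long form is known as a muscle-specific product. Naca-202 held 1.69%, 1.85% and 1.85% at 24 h and 78.2%, 78.2%, 78.3% and 80% at 72 h in KO-labelled cells, and the usage of the switching transcript Naca-201 fell by 2.20 on the log2 scale (edgeR adjusted p = 3.25e-215). Naca-202 is long and gives many reads per molecule. Per length, in TPM (transcripts scaled for length and depth), Naca-201 stayed ahead with 832 TPM against 187 TPM for Naca-202 at 72 h, after 2098 and 2.35 TPM at 24 h.

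Mars-201 lacks the 24-nucleotide exon. It held 96.3%, 95.2% and 95.3% at 24 h, 52.2% and 45% at 48 h, and 17.3%, 30.5%, 28.4% and 21.3% at 72 h in KO-labelled cells (log2 usage -1.97, edgeR adjusted p = 6.86e-14). Ksr1 encodes a scaffold of the RAF, MEK and ERK kinase cascade. Ksr1-201, which starts at the upstream promoter, held 67.8%, 50.8% and 88.7% at 24 h and 1.91%, 2.95%, 1.9% and 4.57% at 72 h (log2 usage -4.59, edgeR adjusted p = 1.04e-12). The 24 h libraries were far apart from each other, but all of them lay above every 72 h library.

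The switching transcript was not called in 4 members in KO-labelled cells at 72 h against 24 h. Phka1 encodes the muscle alpha subunit of phosphorylase kinase, and Phka1-202, with the 177-nucleotide exon, held 85.2%, 85.4% and 74% at 24 h and 3.2e-07%, 0%, 4.07% and 1.65% at 72 h (log2 usage -5.76, edgeR adjusted p = 0.0636). The value is below the threshold in 4 other fits and ranges from 1.22e-07 to 0.139 over all of them. Gopc-201 (a Golgi-associated PDZ protein) held 57.3% to 73.9% and then 3.81e-06% to 20.7% (edgeR adjusted p = 0.0527). The edgeR test called it without KO-labelled 72 h replicate 4 (adjusted p = 0.0165) and with a minimum mean CPM of 1 (0.048). It was also called with the replicate number as a block (0.0142), the trended dispersion (0.000641) and limma's usage test (2.5e-06). Over all fits its adjusted p reached 0.137. Usf3-202 and Herc4-201 had adjusted p-values of 0.217 and 0.355. Herc4-201 stood at 44.9%, 34.9% and 45.2% in 3 libraries at 72 h and at 2.39e-06% in the other, against 75.1% to 88.3% at 24 h. In all 4 genes the shares of the stages did not overlap, and limma's usage test called all 4. Atg16l1 (adjusted p = 0.0453) and Frmd4a (0.0355) were called but lost the call in 6 of the fits that left out 1 KO-labelled library, with adjusted p-values up to 0.196 and 0.102.

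**Figure D3:**
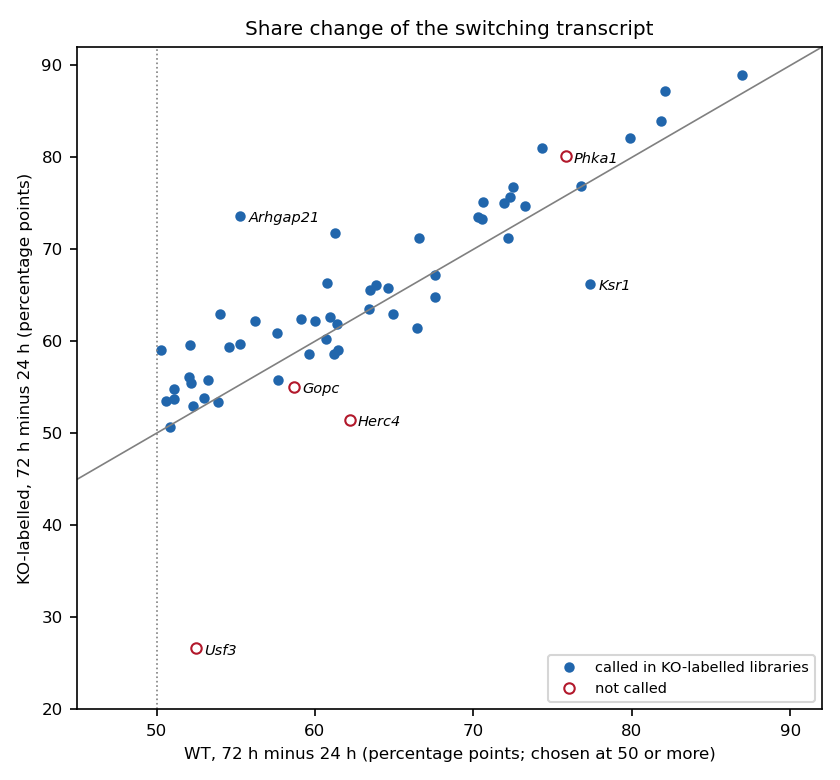
Change of the switching transcript's share from 24 h to 72 h, in percentage points, in WT (horizontal, used by the rule) and in KO-labelled libraries (vertical), 1 point per gene. Filled blue points mark the 53 genes called in the KO-labelled libraries and open red points the 4 that were not called.

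The members nearest the threshold described here were Tnk2 and Psap on the inside, with WT changes of 50.3 and 50.6 points, and Myo18a, Ift122 and Fhl1 on the outside, with -49.0, -48.4 and 48.3 points. Tnk2 encodes a non-receptor tyrosine kinase and was among the more variable members, with Tnk2-205 at 13.3% to 33.8% at 24 h and 68.5% to 86.9% at 72 h in KO-labelled cells (edgeR adjusted p = 1.07e-09). Psap-205, with the 9-nucleotide exon, was at 3.84% to 4.24% and then 56% to 58.6% (edgeR adjusted p = 9.74e-145). The same rule applied to the KO-labelled libraries found 72 of 5035 genes past the count minimum (1.43%). It shared 55 genes with the WT list, which is 96.5% of the WT list and 76.4% of the other, and in 49 of the 55 the transcript with the largest change was the same. The members missing from it were Tcf20, which fell under the count minimum, and Usf3, which changed by 26.6 points.

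Most of the share change had taken place by 48 h. At 48 h against 24 h in KO-labelled cells, 47 of the 57 switching transcripts were called along the WT direction (edgeR adjusted p under 0.05), against 8.52% of all transcripts. The share had moved by a median of 50.5 points, from 17.0 to 74.9. In all 57 genes the 2 stages did not overlap, each along the WT direction. Of all transcripts, 28.4% did so along their own WT change, and a further 7255 of the 44935 did not overlap against it. At 72 h against 48 h, 22 were called along the WT direction, against 11.7% of all transcripts, and the median change was 11.2 points. The trended dispersion called 13 and limma 39 in this last comparison, so its count depends on the method. All 47 genes called at 48 h were also called at 72 h, and 6 were called only at 72 h.

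Genes differed in how far they had come by 48 h. As a percentage of the WT change from 24 h to 72 h, the WT 48 h mean stood at a median of 74.8% over the 57 genes, with 48 genes at or past 50%. The KO-labelled 48 h mean stood at 84.6%, with 54 at or past 50%. The genes with the least of the change done in WT were Osbpl1a (26.7%), the complement protease gene Masp1 (29.8%), Atg16l1 (34.9%), Psap (35.6%) and Mars (39.7%), which were singled out after their values were seen. Gopc, at 105.5%, was the furthest. Capzb, Slc25a3 and Pdlim5 lay near their 72 h level at 48 h under both labels.

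Between the labels at 48 h, a stage that the rule did not use, few switching transcripts were called. In 3 of 57 genes the KO-labelled libraries were further along the WT change (edgeR adjusted p under 0.05), against 0.267% of all transcripts called in that direction and 0.452% in either. Pdlim5-201 held 4.91%, 4.33% and 4.02% in WT and 1.46% and 1.7% in KO-labelled libraries (log2 usage -1.48, edgeR adjusted p = 2.06e-11). Masp1-204, which ends at an alternative last exon, held 20.7%, 23.7% and 22.6% in WT and 36% and 35.3% in KO-labelled libraries (log2 usage 0.67, edgeR adjusted p = 0.0268). In Lrrfip1, the falling Lrrfip1-203 held 9.47%, 9.54% and 8.86% in WT and 7.08% and 6.02% in KO-labelled libraries (log2 usage -0.50, edgeR adjusted p = 0.0026). None of these 3 genes overlapped between the labels. The next smallest adjusted p-values were 0.0724 for Sept11-201 (33.7% to 33.9% in WT, 27.3% and 28.4% in KO-labelled) and 0.103 for Bnip3l-201 (11.9% to 13.2%, 6.81% and 9.63%).

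The Pdlim5 call held in every alternative fit (largest adjusted p = 0.0149). The Masp1 call was lost with no filter on low counts (adjusted p = 0.101), without either KO-labelled library or without WT replicate 1 or 3, with adjusted p-values from 0.0691 to 0.283, and the Lrrfip1 call without KO-labelled replicate 2 (0.305) and with limma (0.555). Both calls were also lost in a fit of only these 2 groups (adjusted p = 0.336 and 0.444) and with the trended dispersion. Bnip3l was called without KO-labelled replicate 1 (0.0312), and Sept11 with DESeq2 size factors (0.0196), limma (0.00436) and a minimum mean CPM of 1 (0.00976). Limma's usage test called 10 genes and the fit of only these 2 groups 6. Called or not, the KO-labelled mean was further along the WT change in 48 of 57 genes, against 51.8% of all transcripts, by a median of 5.13 points, from -10.8 in Herc4 to 20.4 in Tmem184b. The libraries did not overlap in 35 genes along the WT change (11.6% of all transcripts) and in 1, Scrib, against it (9.02%). Tmem184b-202 held 43.4%, 45.5% and 45.5% in WT and 22.9% and 25.8% in KO-labelled libraries, but its usage was not called (log2 usage -0.88, edgeR adjusted p = 1).

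Other measures differed between the labels at this stage too. Summed fibroblast markers were 23.1 to 25.4 CPM in WT and 7.38 to 10.8 CPM in KO-labelled libraries, almost wholly Col3a1. Pax7, a marker of muscle stem cells, was at 10.1 to 10.8 and 4.80 to 5.68 CPM, and the myogenic factor Myod1 at 748 to 853 and 610 to 613 CPM. Mymk, which encodes the fusion protein myomaker, went the other way, at 1629 to 1746 CPM in WT and 1890 to 2047 in KO-labelled libraries. Of the 9 muscle markers, 3 (Pax7, Myf5 and Myod1) were lower and 1 (Mymk) was higher in KO-labelled libraries without overlap, and 5 overlapped. Their sum overlapped, at 34025 to 37975 and 33417 to 36641 CPM. The part of these in the share differences was not tested. At 24 h and 72 h, where the WT libraries chose the genes, the shares lay within 5 points of each other in 51 and 52 genes. Signed along the WT change, the KO-labelled mean was behind the WT mean at 24 h in 42 of the 57 genes, with a median gap of -1.27 points and a range from -10.6 in Arhgap21 to 24.5 in Usf3. At 72 h it was ahead in 38 genes, with a median gap of 0.39 points and a range from -5.44 in Herc4 to 8.39 in Tnk2. These counts carry no test. At 24 h the summed muscle markers lay at 2196 to 2297 CPM in KO-labelled and 2685 to 2954 CPM in WT libraries, without overlap. Their part in the share gaps was not tested.

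**Figure D4:**
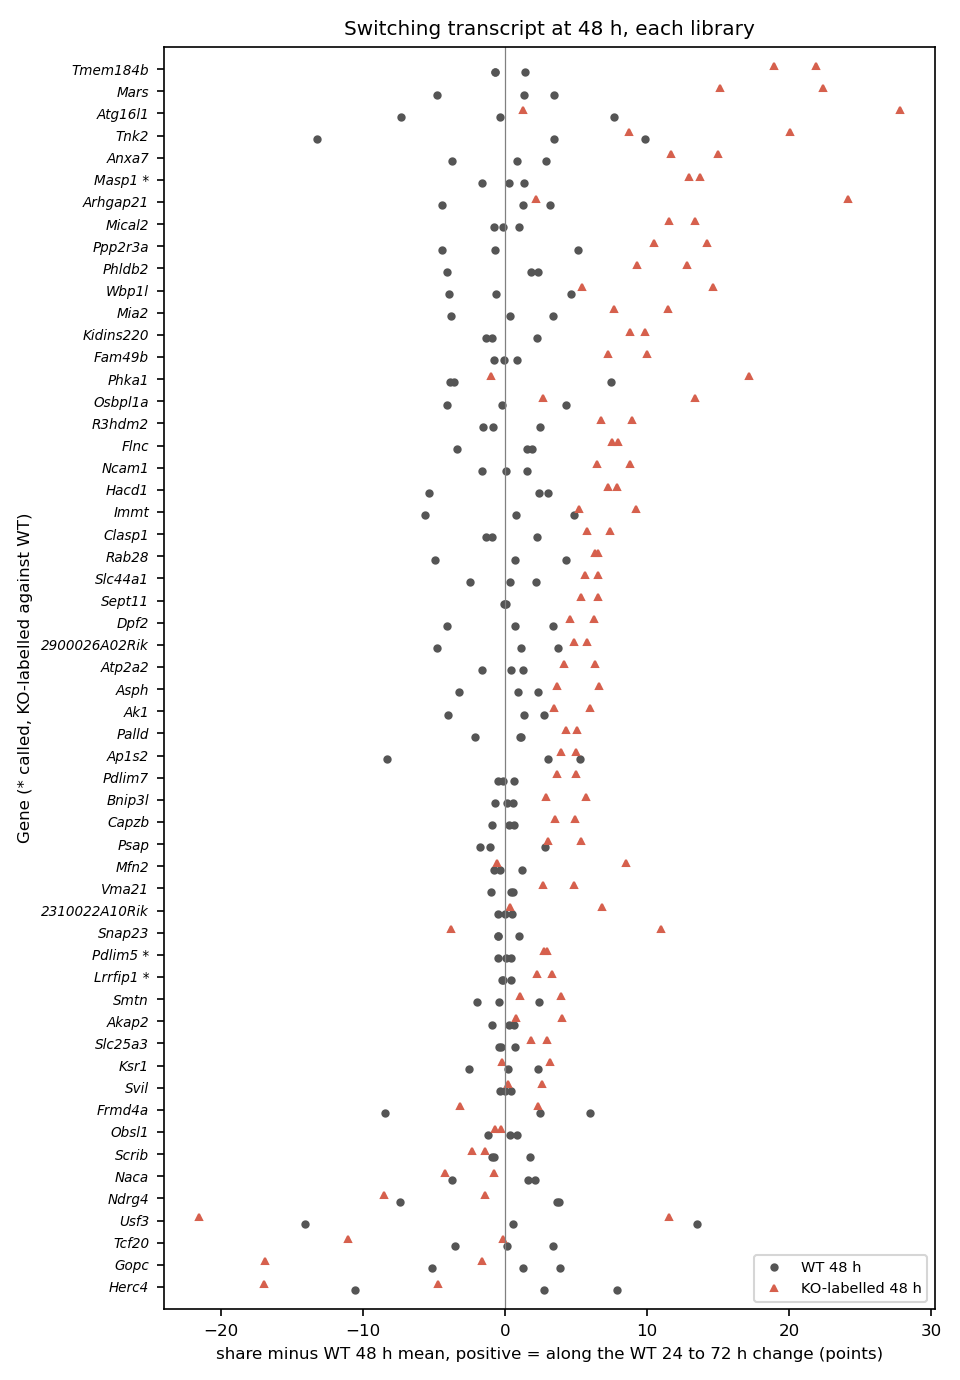
Share of the switching transcript at 48 h in each library minus the WT 48 h mean, in percentage points signed along the WT change, for 56 of the 57 genes. WT and KO-labelled libraries are separate points, and asterisks mark Pdlim5, Lrrfip1 and Masp1, the 3 genes called between the labels.

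Gene totals moved in both directions. Summed over transcripts, 36 of the 57 genes rose and 17 fell in KO-labelled cells at 72 h against 24 h (edgeR adjusted p under 0.05), against 42.7% higher and 44.6% lower among 15129 genes tested. The median log2 change was 0.73, against -0.04 over all genes, and 23 genes rose and 6 fell at least 2-fold. The largest changes were 4.29 in Ndrg4, 3.19 in Obsl1, 3.02 in Ncam1 and 2.98 in Palld, and -2.41 in Phldb2. Capzb exchanged its main transcript with a log2 change of its total of -0.04, which was not called, and the totals of Tmem184b, Arhgap21 and Bnip3l were not called either. Between the labels at 48 h, KO-labelled libraries had 14 totals called higher and 10 called lower, with 33 not called, against 11.1% higher, 14.1% lower and 25.2% either way among all genes. The largest of these was -1.04 in Phldb2. Per length, in KO-labelled cells at 72 h against 24 h, the mean TPM of the rising transcript was at least 2-fold higher and that of the falling transcript at least 2-fold lower in 42 genes. In 10 genes only the rise reached 2-fold and in 5 only the fall. The TPM of the falling transcript was higher at 72 h in 5 genes, and that of the rising transcript was lower in 1, Phldb2, at 0.58-fold. The transcript with the highest TPM differed between the stages in 55 of the 57 genes in KO-labelled cells and in 54 in WT.

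More of the known regulators of splicing fell than rose over the same interval. Of 58 listed, 52 were tested, none of which is a member. In KO-labelled cells at 72 h against 24 h, 39 fell, 11 rose and 2 were not called (edgeR adjusted p under 0.05, gene totals), against 44.6% lower and 42.7% higher among all genes, with a median log2 change of -1.28. Ptbp1, a repressor of many muscle and neuronal exons, fell by 4.42 ± 0.051 on the log2 scale (SE, adjusted p = 3.23e-31), from a mean of 463 to 21.5 CPM. Rbfox1, which promotes inclusion of exons near its binding motif, rose by 5.34 ± 0.087 (adjusted p = 7.16e-28), from 1.88 to 75.6 CPM. Rbm24, a muscle splicing factor, rose by 2.75 ± 0.043 (adjusted p = 3.14e-28), from 55.9 to 377 CPM. The other 5 of the 8 factors with the smallest adjusted p-values all fell, namely the general factors Hnrnpa1 (log2 -2.94), Hnrnpf (-2.09), Srsf1 (-2.33), Srsf2 (-2.38) and Srsf3 (-2.54). At least 2-fold, 31 regulators were lower and 5 higher, the others of the 5 being Rbfox2, Rbm38 and Raver2. Their part in the share changes was not tested.

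**Figure D5:**
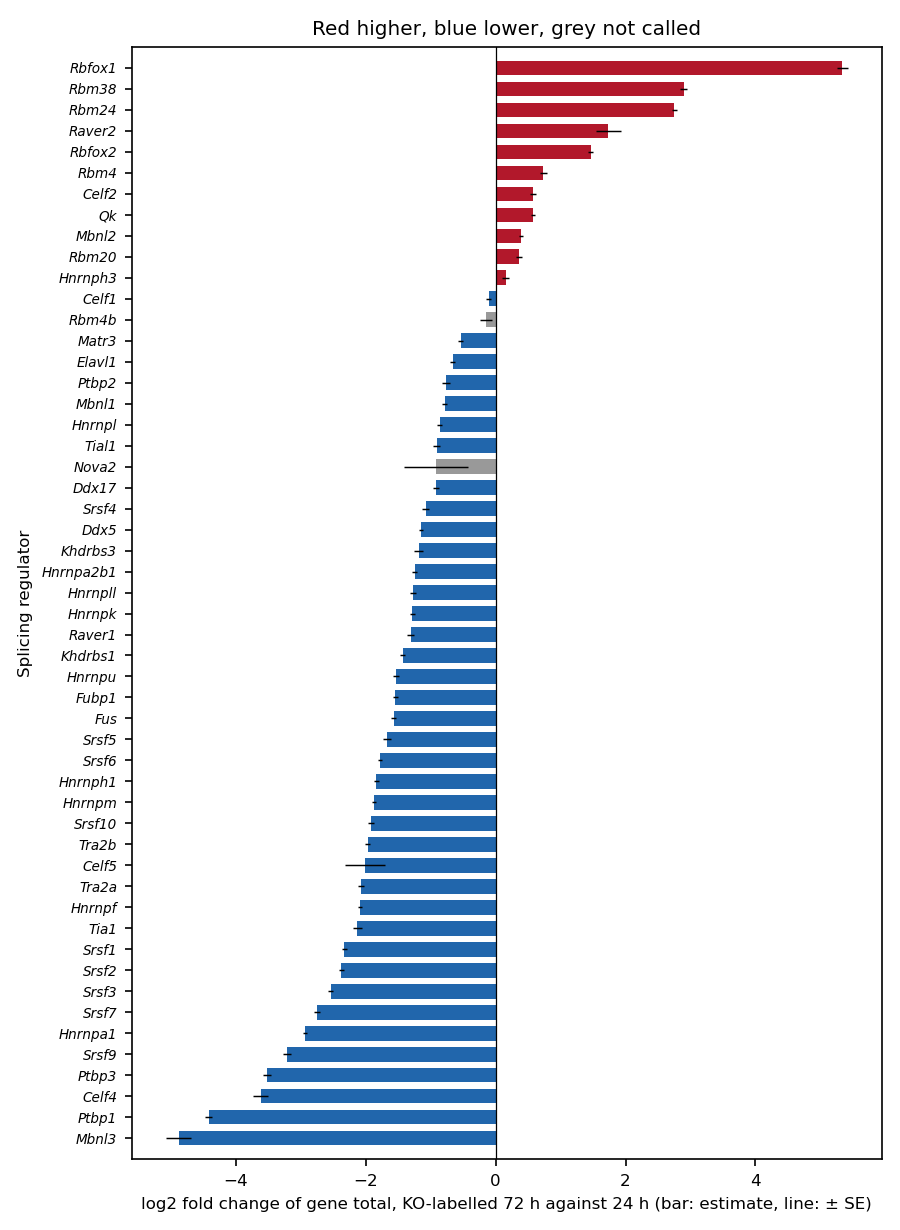
Log2 change of the gene total (CPM) of the splicing regulators tested, KO-labelled 72 h against 24 h, as bars with standard errors from edgeR. Most bars point down, with Ptbp1 at -4.42, while Rbfox1 (5.34), Rbm38 (2.90) and Rbm24 (2.75) point up.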

How the data were processed

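The authors deposited 1 table per library with, per the file headers, an estimated count, a TPM value (an abundance scaled for length and depth), a length and an effective length for each of 121843 mouse transcripts. Per the submitters' processing notes, the tools were bcl2fastq 2.20, fastp 0.20.0, kallisto 0.46.1 and edgeR 3.36, with build GRCm38.p6. Kallisto divides a read that matches several transcripts among them, so shares of forms that differ by few bases rest on the few reads over those bases, and a long form gives more counts per molecule. Transcripts were assigned to genes with GENCODE M21 (121104 matched, 120830 with the same length), and the 739 without a match held 0.244% to 0.496% of a library's counts.

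Shares were computed from the deposited estimated counts over all transcripts of a gene, and the deposited TPM values entered 1 alternative and the levels per length. Counts were rounded and tested with edgeR 4.0.16 in R 4.3.3 (limma 3.58.1 and DESeq2 1.42.0 for alternatives), with TMM scaling, filterByExpr and all 19 libraries in 1 quasi-likelihood fit of 6 groups. Usage of a transcript against the rest of its gene was tested with diffSpliceDGE on 44935 transcripts, and gene totals with glmQLFTest on 15129 genes, with Benjamini-Hochberg adjustment over all of them and calls at 0.05. The WT libraries at 24 h and 72 h were not tested, because the rule had used them.

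The usage fit used a dispersion per transcript (common coefficient of variation 68.8%, genes 4.04%). It was chosen on simulated counts after the calls under edgeR's default, the trended dispersion, and under limma had been seen. For 72 h against 24 h in KO-labelled libraries, it recovered 56 of 100 transcripts moved by 25 points and 92 of 100 moved by 50 points, and called 104 of 40988 unchanged transcripts (41728 tested). The trended fit recovered 0 and 53 and called 203 unchanged, and limma recovered 69 and 83 and called 235. The simulation itself drew from dispersions per transcript. Gene totals recovered 99 of 100 genes changed 2-fold and 100 of 100 changed 4-fold, with 15 of 14723 unchanged genes called (14923 tested).

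Named are the 12 largest WT share changes, members on the list of known muscle isoform switches, the 5 smallest adjusted p-values between labels at 48 h, members not called in KO-labelled cells, 3 genes on each side of the threshold, up to 3 members of each list of roles, the 8 regulators with the smallest adjusted p-values, and Glud1. Others were chosen after their values were seen. One gene named by this rule and 1 exon sequence are not reported here, though the gene is in all counts over the 57. The lists of metabolism (60 genes) and membrane traffic (43) held 3 members and 1 member, and those of signalling (59) and of transcription and chromatin (62) held none. The members and lists were chosen with earlier results of these data known. The alternatives were other scaling, filters, tests, share definitions and count minimums, each replicate left out, and a replicate block. Same-numbered libraries did not deviate together (correlations -0.046 to 0.029), so the numbers were not taken as pairs.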

Additional observations from a re-analysis of the deposited data

Results flagged for a closer look

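In 114 groups of 4 libraries at 72 h, the share of each switching transcript was examined for a single library far from the other 3, which chance gives in about 1 of 20 groups, and 4 were found. WT replicate 4 held 10.9% Phka1-202, against 7.33e-07% to 3.4e-05% in the other 3 libraries. The other 3 groups were KO-labelled, and in each of them replicate 4 stood apart. It held 20.03% Naca-201 against 21.7% to 21.8%, 0.273% Pdlim7-201 against 0, and 22.5% Sept11-201 against 19.4% to 19.8%.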

How the results depend on the processing

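The 53 calls in KO-labelled cells at 72 h against 24 h ranged from 51 with no filter on low counts to 57 with limma, and from 51 to 52 with 1 library left out. At 48 h against 24 h the count of 47 was 57 with limma, 52 with only the 2 groups compared, and 44 to 47 with 1 library left out. At 72 h against 48 h the count of 22 became 39 with limma and 13 with the trended dispersion, an alternative chosen after seeing the data, and 20 to 23 with 1 library left out. Between labels at 48 h the count of 3 became 10 with limma, 6 with only the 2 groups compared, and 2 to 4 with 1 library left out. The median share change of 62.6 points in KO-labelled cells was 53.3 with shares of TPM and 64.4 over protein-coding transcripts only, and 62.3 to 63.3 with 1 library left out. The number of genes found by the rule was 57, and it was 40 with shares of TPM (37 of them among the 57), 67 over protein-coding transcripts only (56 among the 57), 80 at a minimum of 200 counts and 40 at 1000, and 55 to 60 with 1 library left out. Gene totals called were 52 to 53 at 72 h against 24 h and 17 to 23 between labels at 48 h with 1 library left out, and regulators called 49 to 51. With the replicate number as a block, though the numbers do not pair the libraries, the counts were 55, 47, 21 and 3 for usage in the order above, 52 and 25 for gene totals, and 50 for regulators. Under the block, Masp1 lost (adjusted p = 0.145) and Sept11 gained (0.0356) the call between labels at 48 h, and Phka1 (0.00793) and Gopc (0.0142) gained it at 72 h against 24 h. The Tmem184b gene total, -0.06 on the log2 scale, ranged from -0.0982 to 0.0076 with 1 library left out, changed sign without KO-labelled 24 h replicate 1, and was not called in any of these fits, but was called with no filter on low counts (-0.12, adjusted p = 0.0173). Of the other gene-level values, 1052 kept their side of the threshold, 18 passed it and 27 lost it. R3hdm2 lost its call with only the 2 groups compared (adjusted p = 0.0835). The cause of these changes was not tested. The smallest mean total of a member was 108 counts, in Osbpl1a in KO-labelled cells at 48 h.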

Other observations

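The same rule applied to KO-labelled libraries found 17 genes that are not among the 57, and 9 of them changed by at least 45 points in WT. Fhl1-205, from a LIM-domain gene of muscle, went from 29.6% to 81.4% between 24 h and 72 h in KO-labelled libraries and from 34.3% to 82.6% in WT. Fbxw7-202, from a ubiquitin ligase gene, went from 4.99% to 80.3% and in WT from 0.898% to 79.5%, where its gene total was under the count minimum. The means of 2 genes differed more between the labels. Rreb1-201, from a zinc-finger transcription factor gene, went from 15.9% to 75.7% in KO-labelled libraries and from 21.6% to 35.5% in WT. Rcan1-206, from a regulator of calcineurin, went from 62.8% to 8.13% in KO-labelled libraries and from 9.38% to 1.48% in WT. These genes were picked after their values were seen, and the differences between labels were not tested.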
